A study of Mus musculus with 45 samples.

Results

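The genes described here are 8 genes of bone morphogenetic protein (BMP) signalling in mouse embryonic stem cells (ESCs), namely the ligand Bmp4, the inhibitors Bambi, Smad6 and Smad7, and the target genes Id1, Id2, Id3 and Id4. They were picked by symbol, and all 8 were found among the 33924 genes listed in each of 2 expression tables. RNA-seq was performed on 24 samples in 8 groups of 3, taken from ESC lines that lack the lncRNA gene 5430416N02Rik on 1 or both alleles. In ΔPG cells a PGK-puro cassette took the place of 5430416N02Rik together with its promoter, and in ΔG cells a GFP-IRES-Puro cassette took the place of the gene body alone. Heterozygous (het) and homozygous (hom) cells of each line were compared in the undifferentiated state (ES, given DMSO) and after 48 h in 2 µM retinoic acid (RA). The groups are therefore het ES, hom ES, het RA and hom RA of ΔPG and the same of ΔG. All came from D3 mouse ESCs of strain 129, which were grown without feeder cells in serum and leukaemia inhibitory factor (LIF). Whether LIF was kept during the 48 h in RA is not given in the sources used here. Every group carries at least 1 replaced allele with a drug resistance cassette, and no unedited cells were among the samples. The study calls the 3 samples of a group biological replicates, but how many clones of a genotype were sequenced is not given in the sources used here. Genotype and clone therefore cannot be told apart, and p-values measure only the spread between these samples.

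BMP ligands bind pairs of type I and type II receptors, which phosphorylate Smad1, Smad5 and Smad9. These join Smad4, enter the nucleus and switch on target genes, of which the Id genes respond most directly. Id proteins lack a DNA-binding region and hold E proteins such as Tcf3 and Tcf12 away from DNA, and in ESCs kept in LIF this is known to restrain differentiation, mainly into neural cells. Smad6 and Smad7 are inhibitory Smads, and Bambi is a receptor-like protein without a kinase. All of these are themselves BMP or TGF-β targets and act as feedback inhibitors.

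The values are regularized log (rlog) values, a log2 scale on which genes with few reads are pulled towards their mean, so differences of low genes are understated. Depth cannot be read from them. A gene was called when its limma adjusted p was under 0.1 and its absolute difference over 0.5. The table of ΔPG and that of ΔG were normalized separately, so tests stayed within a table and values of both lines are only set side by side. The mean rlog of each of the 8 genes was 3 or more in both tables.

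Before the results, the state of the samples is given. 5430416N02Rik lay between 2.21 and 2.46 in ΔPG hom ES and between 4.58 and 4.62 in ΔPG het ES, and between 2.63 and 2.85 in ΔG hom ES against 5.50 to 5.58 in ΔG het ES. In RA the hom samples of both lines lay below the het samples as well. Trp53 (p53) differed between the ΔPG genotypes, at 6.95 to 7.15 in het ES and 3.83 to 4.24 in hom ES, and lay between 2.17 and 2.88 in all ΔG samples. The 6 pluripotency markers had a mean between 10.9 and 11.2 in ES samples and between 7.33 and 7.50 in RA samples, and all 6 fell with RA in each genotype. In ΔPG ES this mean was 11.07 to 11.11 in het and 10.87 to 10.89 in hom. There 1 of the 6 was called lower in hom, and 0 after removal of the GC trend described below. The 6 extraembryonic endoderm markers (Gata4, Gata6, Sox17, Sox7, Dab2, Foxa2) rose together, from 2.92 to 3.33 in ES to 5.49 to 6.21 in RA. Of 4 fibroblast markers 2 or 3 rose, and 1 (Thy1) fell in both ΔPG genotypes, by 0.67 in het and 0.53 in hom. Their list mean lay between 3.27 and 3.94 in ES and between 5.07 and 5.76 in RA. Of 3 neural markers 2 rose, with a list mean between 3.16 and 3.72 in ES and between 4.70 and 5.03 in RA. Of 3 trophoblast markers 1 rose in each genotype. The trophoblast list mean lay between 0.971 and 1.32 in ES and between 1.78 and 2.29 in RA. Of the mesoderm markers 1 rose and 1 fell in each genotype. Their mean over 4 varying genes in ΔPG lay between 1.31 and 1.67 in ES and between 1.52 and 1.67 in RA. Over 3 varying genes in ΔG it lay between 2.16 and 2.47 in ES and between 2.55 and 2.91 in RA. The part of these lists in the results below was not tested, and in bulk RNA fewer cells of a type and less RNA per cell cannot be told apart. One library stood somewhat apart: ΔPG hom RA replicate 1 had a correlation of 0.861 with a sample of its own group after centring on gene means, where the other groups had at least 0.91.

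The upstream DNA of the 2 members that rose most with RA, Id2 and Id3, and of Bmp4, which fell, is shown because the Id promoters are where BMP Smads are known to act. They are the 250 bases before the RefSeq transcription start, in GRCm38.p6 and on the strand of the gene. DNA farther upstream was not searched, and binding of Smads within these stretches was not tested. Capitals mark GGCGCC, a palindrome, and GGAGCC with its reverse complement GGCTCC, GC-rich elements known to bind Smad1 and Smad5, searched on both strands, and no marked matches overlap.
Id2, chr12:25096093-25096342, minus strand: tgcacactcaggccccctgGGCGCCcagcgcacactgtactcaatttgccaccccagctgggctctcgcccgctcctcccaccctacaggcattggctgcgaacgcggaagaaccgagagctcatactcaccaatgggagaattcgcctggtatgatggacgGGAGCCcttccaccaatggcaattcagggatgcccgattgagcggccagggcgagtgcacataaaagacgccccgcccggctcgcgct
Id3, chr4:136143572-136143821, plus strand: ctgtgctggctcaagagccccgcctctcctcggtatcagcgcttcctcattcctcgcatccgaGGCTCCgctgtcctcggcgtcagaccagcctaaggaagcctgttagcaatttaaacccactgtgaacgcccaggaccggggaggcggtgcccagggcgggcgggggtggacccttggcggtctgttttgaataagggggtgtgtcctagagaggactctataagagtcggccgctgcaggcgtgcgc
Bmp4, chr14:46390670-46390919, minus strand: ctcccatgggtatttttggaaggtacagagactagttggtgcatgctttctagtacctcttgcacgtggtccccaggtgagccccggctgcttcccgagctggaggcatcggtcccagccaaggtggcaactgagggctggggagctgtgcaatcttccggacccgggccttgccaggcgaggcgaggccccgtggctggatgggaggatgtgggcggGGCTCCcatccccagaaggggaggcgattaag
GGCGCC occurred 1 time before Id2 and 0 times before Id3 and Bmp4, and GGAGCC or its complement 1 time before each of the 3. Before Smad6, which rose, GGCGCC was absent and GGAGCC occurred 2 times, and before Id4, which fell, each occurred 1 time. GGCGCC was found in 9.59% and GGAGCC in 26.0% of all 32851 promoters of the same length, whatever their GC content. These 5 promoters had a GC content of 62.8% to 75.6%, and the part of GC content in their matches was not tested. The 5 with GGAGCC or its complement include members that rose and members that fell. Promoters of 5 of the 8 members were matched, and Id1, Smad7 and Bambi are named only.

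RA changed nearly all of the 8 genes, in the same direction in each genotype. Id1, Id2, Id3, Smad6 and Bambi rose and Bmp4 and Id4 fell in all 4 RA comparisons. Smad7 was lower in all 4 as well and was called in 3 of them, missing the size limit in ΔPG hom. In ΔPG het, 8 of 8 were called, where 31.6% of 21979 genes were called, 18.0% higher and 13.6% lower. In ΔPG hom 7 of 8 were called, against 27.8% of genes, 16.5% higher and 11.3% lower. In ΔG het 8 of 8 were called, against 29.5% of 22048 genes, 17.7% higher and 11.7% lower. In ΔG hom 8 of 8 were called, against 29.2%, 17.0% higher and 12.1% lower. Among genes with a mean rlog of at least 3, 49.5% were called in ΔPG het and 42.6% in ΔPG hom. In ΔG these shares were 45.5% in het and 46.4% in hom. With quantile normalization the share of all calls that were higher moved from 60.2% to 47.9% in ΔG het and from 58.4% to 47.1% in ΔG hom, and from 59.4% to 49.2% in ΔPG hom, while the differences of the 8 genes kept their signs. The ES and RA samples of all 8 genes did not overlap in any of the 4 comparisons. This held for 56.1% of all genes in ΔPG het, 52.7% in ΔPG hom, 54.5% in ΔG het and 52.6% in ΔG hom. Such shares of separated genes, here and below, cover all varying genes. They were not computed for genes with a mean rlog of at least 3, as in all 8.

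**Figure D1:**
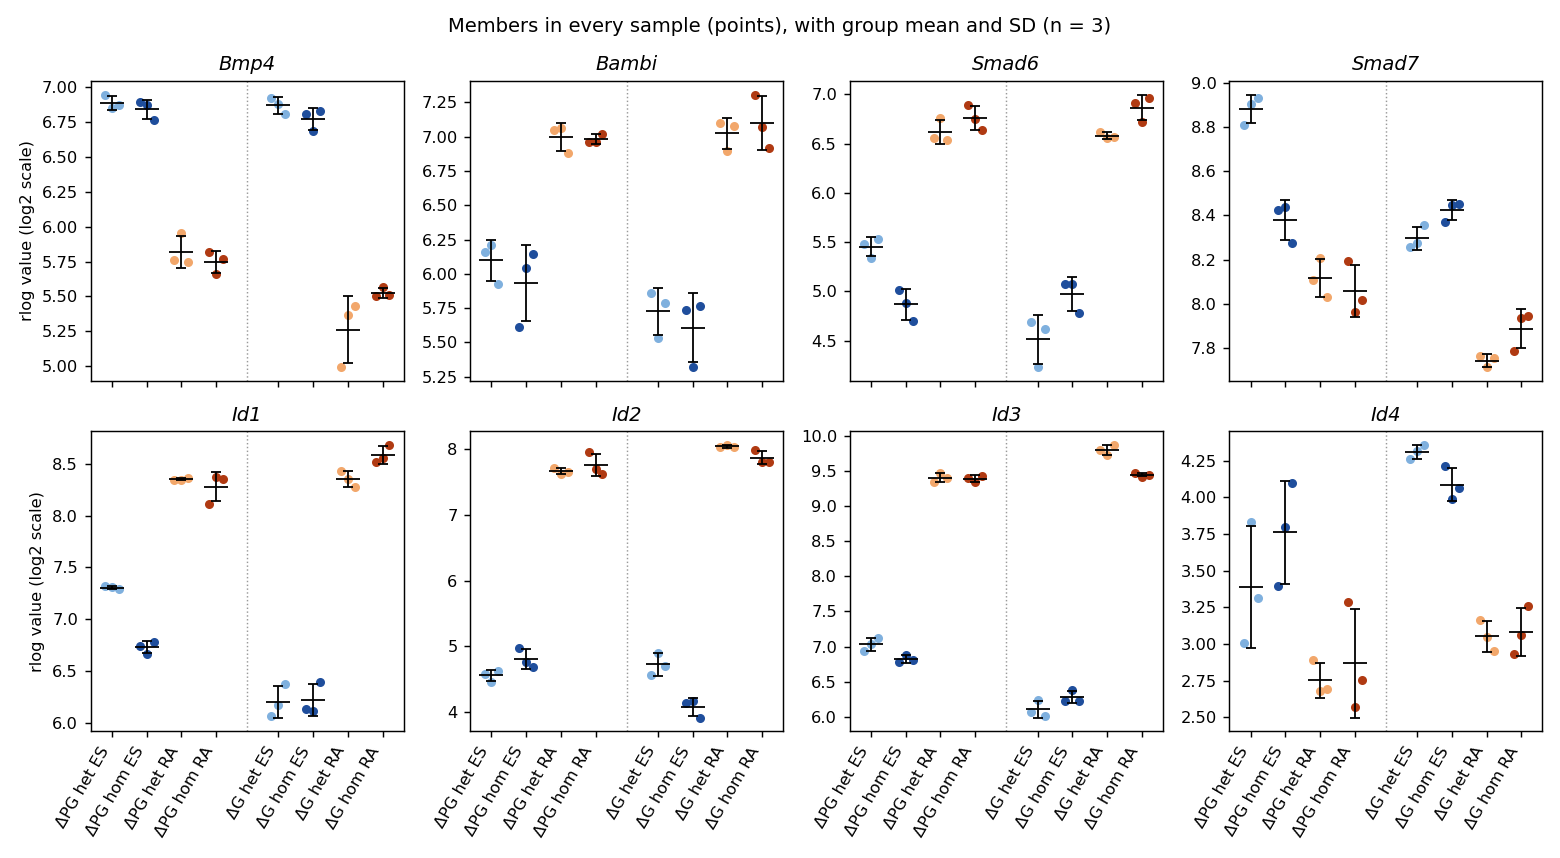
Rlog value (log2 scale, y axis of each panel, not starting at 0) of the 8 genes in each of the 8 groups, with the 3 samples as points and the group mean and SD as black bars. ΔPG groups stand left and ΔG groups right of the dotted line, and the 2 tables were normalized separately. In every panel the blue ES points and the orange and red RA points of a genotype do not overlap.

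Bmp4, the ligand among the 8, fell with RA. In ΔPG its ES samples were at 6.95, 6.85 and 6.87 (het) and at 6.89, 6.87 and 6.77 (hom), and its RA samples at 5.76, 5.95 and 5.75 (het) and at 5.82, 5.66 and 5.77 (hom). All RA samples were thus below all ES samples, while het and hom samples overlapped in both states. The difference RA minus ES was -1.07 ± 0.070 (standard error, SE) in ΔPG het (adjusted p = 8.58e-06) and -1.09 ± 0.083 in hom (adjusted p = 6.87e-07). In ΔG the ES samples lay between 6.69 and 6.93 and the RA samples between 4.99 and 5.57, and Bmp4 fell by 1.61 on the log2 scale in het (adjusted p = 5.23e-08) and by 1.25 in hom (adjusted p = 3.79e-09). The lowest value of all, 4.99, was that of ΔG het RA replicate 1, and without it the difference in ΔG het was -1.47.

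The inhibitors moved in both directions. Bambi rose by 0.90 ± 0.089 in ΔPG het, 1.05 ± 0.12 in ΔPG hom, 1.30 ± 0.10 in ΔG het and 1.49 ± 0.13 in ΔG hom, with adjusted p from 1.41e-08 to 8.52e-05. Its ES samples lay between 5.32 and 6.21 and its RA samples between 6.88 and 7.31. Het and hom Bambi samples overlapped in ES and in RA of both lines.

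Smad6, which competes with Smad4 for the BMP Smads, stood in ΔPG at 5.48, 5.34 and 5.53 in het ES, at 5.01, 4.89 and 4.70 in hom ES, at 6.56, 6.76 and 6.53 in het RA and at 6.89, 6.75 and 6.64 in hom RA. The hom samples were below the het samples in ES and overlapped with them in RA. With RA it rose by 1.17 ± 0.085 in ΔPG het and by 1.89 ± 0.11 in ΔPG hom (adjusted p = 1.48e-05 and 7.05e-08). After removal of a trend with exonic GC content, described below, these rises were 1.39 ± 0.097 and 1.64 ± 0.12. In ΔG the 3 het ES samples (4.69, 4.23, 4.62) were below the 3 hom ES samples (5.07, 5.08, 4.78), and the rise was 2.07 ± 0.12 in het and 1.89 ± 0.11 in hom (adjusted p = 7.25e-09 and 1.37e-10).

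Smad7, which blocks the type I receptors of both BMP and TGF-β, moved the other way. Its ES samples were at 8.81, 8.90 and 8.93 in ΔPG het, and its RA samples were all lower, at 8.11, 8.21 and 8.03 there. The fall was 0.77 on the log2 scale in ΔPG het (-0.77 ± 0.053, adjusted p = 1.12e-05), and the differences in ΔG were -0.55 ± 0.060 in het and -0.53 ± 0.065 in hom (adjusted p = 3.42e-06 and 1.77e-06). In ΔPG hom, where ES samples were already lower (8.42, 8.44 and 8.28), the difference was -0.32 ± 0.069 with an adjusted p of 0.00254 and did not pass the limit on size. With the GC trend removed the differences in ΔPG were closer, at -0.52 ± 0.048 in het, near the size limit, and -0.44 ± 0.064 in hom. The size limit was missed in both ΔG genotypes under quantile normalization, at -0.49 in het and -0.46 in hom, and in ΔG hom without RA replicate 1, at -0.48.

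**Figure D2:**
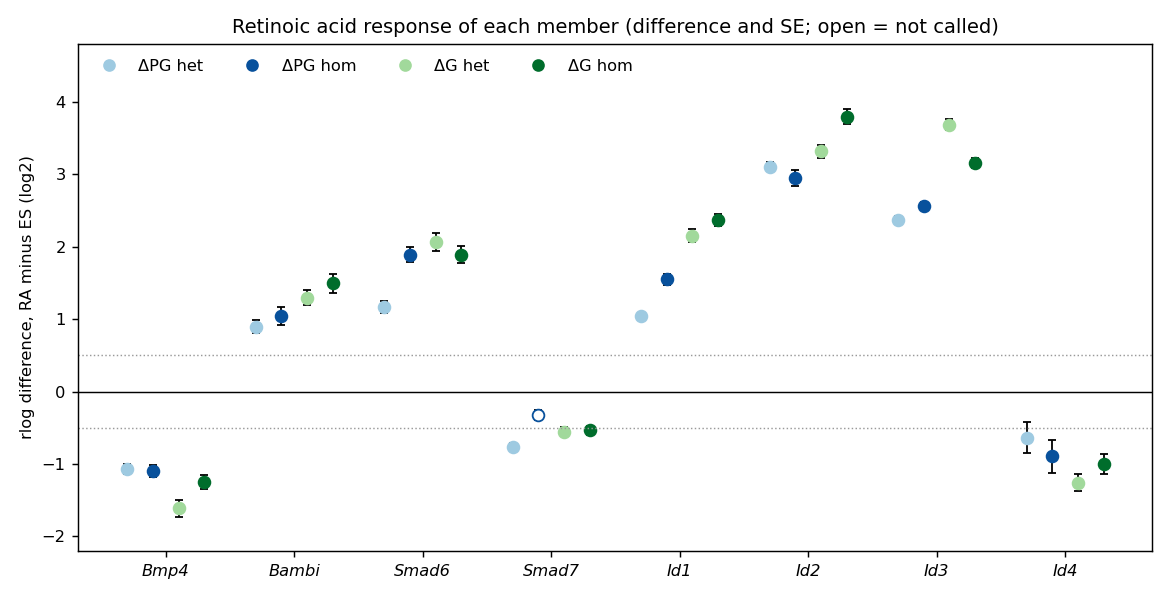
Difference in rlog value, RA minus ES (log2, y axis), of the 8 genes in the 4 genotypes, with SE bars from limma on 6 samples each. Filled points were called, the open point (Smad7 in ΔPG hom, -0.32) was not, and dotted lines mark 0.5 and -0.5. Id2 and Id3 have the largest rises, from 2.37 to 3.80, and Bmp4 the largest falls, from -1.61 to -1.07.

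Id1, Id2 and Id3 rose and Id4 fell. Id2 had the largest difference of the 8 in ΔPG het, ΔPG hom and ΔG hom. It was at 4.58, 4.46 and 4.63 in ΔPG het ES and at 7.72, 7.62 and 7.66 in het RA, and at 4.98, 4.77 and 4.69 in hom ES and 7.96, 7.70 and 7.63 in hom RA. The rise was 3.11 ± 0.064 in ΔPG het (8.62-fold, adjusted p = 2.75e-08) and 2.95 ± 0.11 in ΔPG hom (7.73-fold, adjusted p = 1.75e-09). In ΔG it went from 4.57, 4.91 and 4.70 to 8.04, 8.06 and 8.03 in het and from 4.13, 4.18 and 3.92 to 7.99, 7.81 and 7.81 in hom, which gave 3.32 ± 0.096 and 3.80 ± 0.11 (adjusted p = 5.98e-12 and 3.41e-15). Of all genes tested, 99.5% to 99.7% had a lower difference than Id2 in these 4 comparisons.

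Id3 was at 6.94, 7.04 and 7.12 in ΔPG het ES and at 9.35, 9.47 and 9.39 in het RA, a rise of 2.37 ± 0.054 (adjusted p = 4.45e-08). In ΔPG hom it rose by 2.56 ± 0.053 (adjusted p = 2.21e-11). In ΔG it rose from 6.06, 6.24 and 6.02 to 9.79, 9.73 and 9.87 in het and from 6.23, 6.39 and 6.23 to 9.46, 9.42 and 9.44 in hom. These rises were 3.69 ± 0.073 and 3.16 ± 0.069 (adjusted p = 1.91e-13 and 1.04e-16), and 12.9-fold in ΔG het was the largest fold of Id3. The 3 ΔG hom RA samples all lay below the 3 ΔG het RA samples.

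Id1 rose least of the 3 in each genotype. In ΔPG its samples went from 7.32, 7.31 and 7.29 to 8.35, 8.35 and 8.37 in het, and from 6.74, 6.67 and 6.78 to 8.12, 8.37 and 8.35 in hom. The rise was 1.05 ± 0.031 in het and 1.55 ± 0.077 in hom (adjusted p = 1.38e-07 and 1.85e-08). ΔPG hom RA replicate 1, the library that stood apart, had the lowest of the ΔPG RA values, and without it the rise in hom was 1.63. In ΔG the ES samples lay between 6.07 and 6.39 and the RA samples between 8.27 and 8.68, a rise of 2.15 ± 0.087 in het and 2.37 ± 0.087 in hom (adjusted p = 1.64e-10 and 1.23e-13).

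Id4, known from neural progenitors, fell, and its ΔPG samples spread widely. In ΔPG het ES it was at 3.01, 3.83 and 3.32 and in het RA at 2.89, 2.68 and 2.69. The groups did not overlap, but the gap between the nearest samples was small. Its difference was -0.63 ± 0.21 in ΔPG het (adjusted p = 0.0408), -0.89 ± 0.23 in ΔPG hom (0.00735), -1.26 ± 0.12 in ΔG het (1.04e-06) and -1.004 ± 0.14 in ΔG hom (8.60e-06). In ΔPG het the call rested on single samples: without het ES replicate 2 the difference was -0.41, and without het RA replicate 2 or 3 the adjusted p was 0.102.

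Compared per exonic kilobase (rlog minus log2 of the exonic length in kb), the order of the 8 genes changed with RA. In ΔPG het ES, Id1 was highest at 7.09 ± 0.015 (SD, n = 3), followed by Smad7 at 6.71 ± 0.063, Id3 at 6.19 ± 0.091 and Bmp4 at 5.74 ± 0.050, and Id4 was lowest at 2.66 ± 0.42. In ΔPG het RA, Id3 led at 8.56 ± 0.061, then Id1 at 8.14 ± 0.011 and Id2 at 7.32 ± 0.050. Bmp4 (4.67 ± 0.11) and Bambi (4.66 ± 0.10) did not differ beyond their spread there. In ΔG het ES, Smad7 (6.12 ± 0.053) and Id1 (5.99 ± 0.16) were nearest the top and lay within their spread of each other, and Smad6 was lowest at 2.86 ± 0.25. In ΔG het RA the first 3 were again Id3 (8.95 ± 0.069), Id1 (8.14 ± 0.081) and Id2 (7.70 ± 0.019).

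In the NCBI37 (mm9) assembly, with the GENCODE vM1 models used for counting, the members lie apart from each other. Id1 is at chr2:152561987-152563146, Id2 at chr12:25778666-25780957, Id3 at chr4:135699412-135701670 and Id4 at chr13:48356796-48359405. Bmp4 is at chr14:47003195-47010344, Smad6 at chr9:63800953-63869866, and Smad7 and Bambi are on chromosome 18. Exonic GC content ranged from 42.4% in Id2 and 43.8% in Bambi to 56.6% in Smad7 and 60.9% in Smad6.

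The genotype comparison sets hom beside het cells of a line, where loss of the second 5430416N02Rik allele cannot be told apart from clone. In undifferentiated ΔPG cells, Id1, Smad6 and Smad7 were lower in hom than in het, by 0.57, 0.59 and 0.50 on the log2 scale. These 3 of 8 genes were called and all were lower, where 13.2% of genes were called and 6.29% were called lower. Among genes whose mean rlog reached 3, as in all 8, 23.4% were called. The difference, hom minus het, was -0.57 ± 0.051 for Id1 (adjusted p = 8.49e-05), -0.59 ± 0.11 for Smad6 (adjusted p = 0.00353) and -0.50 ± 0.054 for Smad7 (adjusted p = 0.000231). The hom samples of Id1 (6.74, 6.67, 6.78) all lay below the het samples (7.32, 7.31, 7.29), as did those of Smad6 and Smad7. The 5 genes that were not called had differences from -0.21 (Id3, adjusted p = 0.0381) to 0.37 (Id4, adjusted p = 0.341). Smad7 lay at the size limit and missed it without het ES replicate 2 (-0.49), het ES replicate 3 (-0.48) or hom ES replicate 3 (-0.45) and with median scaling (-0.49), and Id4 passed it without het ES replicate 2 (0.60, adjusted p = 0.0973). Hom and het were fully separated in 5 of the 8 genes, as in 39.6% of all genes.

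Across the 11904 genes whose mean rlog reached 3, the difference between ΔPG hom ES and het ES followed exonic GC content, with a Pearson r of -0.705 and a Spearman rho of -0.735, a description across genes that share the same 6 libraries. After this trend was removed, 0 of the 8 genes were called by limma and 5 had an unadjusted p under 0.05. Of these 11904 genes 7.27% were still called, beside 23.4% before removal. Id1 was then at -0.28 ± 0.074 (adjusted p = 0.00264), Smad6 at -0.12 ± 0.13 (adjusted p = 0.489) and Smad7 at -0.13 ± 0.047 (adjusted p = 0.0231). Bambi, which has a low GC content, moved from -0.17 ± 0.15 to -0.47 ± 0.12 (adjusted p = 0.00116), under the size limit. The signs of Id2, Id3 and Bmp4 turned, to -0.15, 0.07 and 0.16. None of the 3 calls in this comparison remained with the GC trend removed, and the part of the difference in Trp53 was not tested.

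After RA the difference between the ΔPG genotypes was small for all 8 genes. It ranged from -0.07 (Id1) to 0.14 (Smad6), with SE from 0.041 to 0.20. By limma 0 of 8 were called and 0 had an unadjusted p under 0.05, where 0.846% of genes were called. Among genes whose mean rlog reached 3, 1.59% were called. Hom and het overlapped in each of the 8 genes, whereas they were separated in 18.8% of all genes. Of the 6 extraembryonic endoderm markers 3 were lower in hom RA (Gata4, Sox17 and Dab2), and their part in these values was not tested.

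The RA responses of the ΔPG genotypes were then compared directly, as the response of hom minus that of het over 12 samples. Id1 rose more in hom, by 0.50 ± 0.087 (adjusted p = 0.000593), and Smad6 by 0.73 ± 0.14 (adjusted p = 0.00145). These 2 of 8 were called, both higher, where 13.9% of genes were called and 6.72% were called higher. Among genes whose mean rlog reached 3, as in all 8, 25.0% were called. Smad7 had 0.44 ± 0.093 (adjusted p = 0.00257), under the size limit, and without that limit 4 of 8 would be called, where 29.1% of genes were. This difference of responses followed GC content as well, with r = 0.695 across 11904 genes. With the trend removed, 0 of the 8 were called by limma and 2 had an unadjusted p under 0.05, where 9.43% of these 11904 genes were called. Id1 was at 0.21 ± 0.088 (adjusted p = 0.0810) and Smad6 at 0.25 ± 0.15 (adjusted p = 0.248). The value of Id1 lay at the size limit and fell under it, to between 0.46 and 0.498, without het ES replicate 1 or 2, hom ES replicate 2, het RA replicate 1 or 2, or hom RA replicate 2 or 3.

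**Figure D3:**
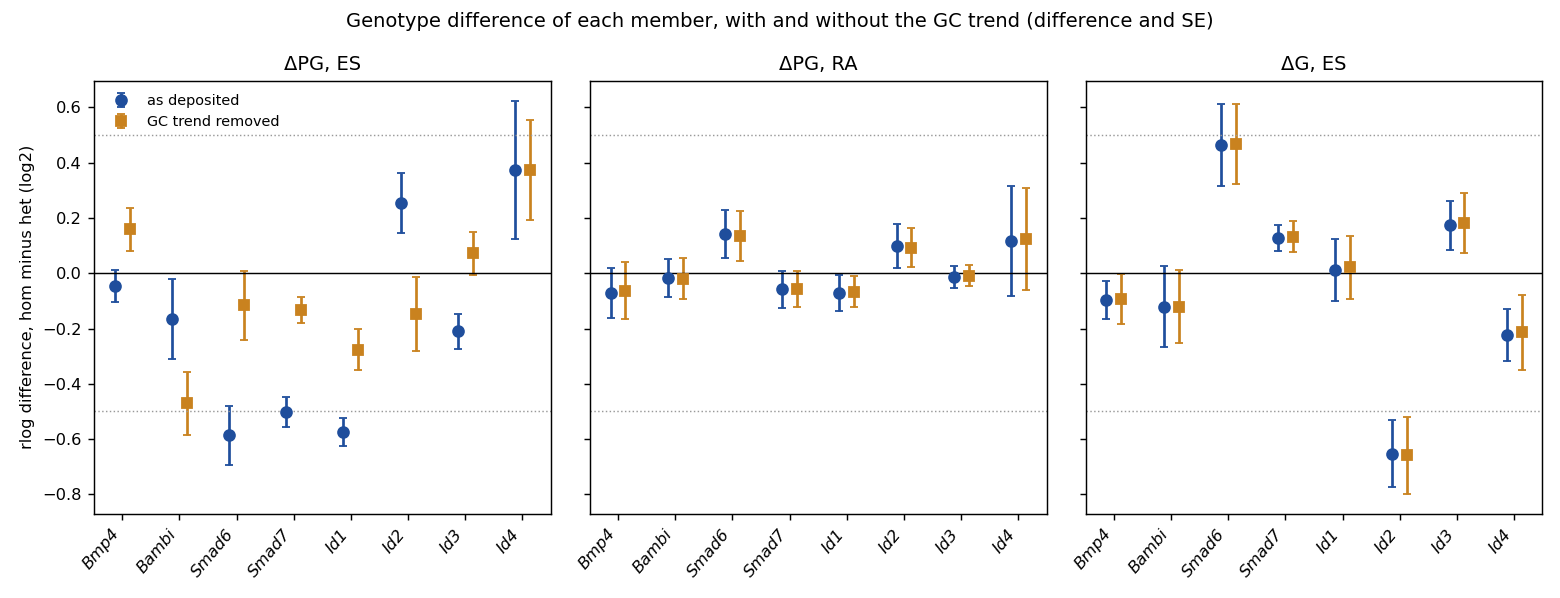
Difference in rlog value, hom minus het (log2, y axis, the same in the 3 panels), of the 8 genes with SE bars, as deposited (blue circles) and after the trend with exonic GC content was removed (orange squares). Dotted lines mark 0.5 and -0.5. In ΔPG ES, Id1, Smad6 and Smad7 move from below -0.5 to between -0.28 and -0.12, while in ΔPG RA and ΔG ES the paired symbols stay close together.

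In undifferentiated ΔG cells the picture was different. Id2 was lower in hom, with samples at 4.13, 4.18 and 3.92 against 4.57, 4.91 and 4.70 in het, a difference of -0.65 ± 0.12 (adjusted p = 0.0385). It was the only 1 of 8 called, where 0.984% of genes were called and 0.630% were called lower. Among genes whose mean rlog reached 3, 2.03% were called. The call of Id2 was lost without hom ES replicate 1 (-0.68, adjusted p = 0.120) and without hom ES replicate 3 (-0.57, adjusted p = 0.112), and the value with the GC trend removed was -0.66. The other 7 genes had differences from -0.22 (Id4) to 0.47 (Smad6), with adjusted p of at least 0.185. Hom and het were separated in 4 of the 8 genes, as in 17.8% of all genes. Under quantile normalization the call of Id2 was lost as well (adjusted p = 0.105), and the share of all calls that were higher moved from 35.9% to 47.3%.

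After RA, 0 of 8 genes were called between the ΔG genotypes by limma, where 2.14% of genes were called, and 5 had an unadjusted p under 0.05. Among genes whose mean rlog reached 3, 3.03% were called. Id3 was lower in hom, at -0.35 ± 0.047 with an adjusted p of 3.96e-05, and Id1 and Smad6 were at 0.23 ± 0.065 and 0.29 ± 0.091 (adjusted p = 0.0317 and 0.0580), all under the size limit. Hom and het were separated in 6 of the 8 genes, beside 21.8% of all genes, those with a mean rlog under 3 included. Without a size limit 3 of 8 would be called, where 11.0% of genes were.

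In the comparison of RA responses between the ΔG genotypes, Id3 rose less in hom than in het, by -0.53 ± 0.10 (adjusted p = 0.00226). It was 1 of 8, where 2.38% of genes were called and 1.18% were called lower. Among genes whose mean rlog reached 3, 4.49% were called. Id2 had 0.48 ± 0.15 (adjusted p = 0.0663), under the size limit. With the GC trend removed both were called, Id2 at 0.50, where 4.48% of the genes whose mean rlog reached 3 were called. Without a size limit 2 of 8 would be called as well, where 5.28% of genes were. Both values lay near that limit. Without het ES replicate 3, hom ES replicate 2 or het RA replicate 3, Id3 was at -0.48, -0.47 and -0.49, and Id2 passed the limit without any 1 of 5 libraries, at up to 0.56. The other 6 genes ranged from -0.18 (Smad6) to 0.36 (Bmp4).

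The other genes of the pathway were read from lists of 57 ligands, receptors, co-receptors, Smads, antagonists, inhibitors, target factors and E proteins. With RA, 28 of 56 varying genes rose and 2 fell in ΔPG het, 33 rose and 2 fell in ΔPG hom, and 32 of 57 rose and 3 fell in each ΔG genotype. Of all genes, 18.0% were called higher and 13.6% lower in ΔPG het, 16.5% and 11.3% in ΔPG hom, 17.7% and 11.7% in ΔG het and 17.0% and 12.1% in ΔG hom, and the counts of the separate lists that follow are read beside these shares. The median difference of the 57 genes was between 0.54 and 0.67, beside 0.0052 to 0.043 for all genes. 

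Among the 13 other ligands, 6 or 7 rose in each genotype and 1, Gdf3, fell. Gdf3, a Nodal-related factor of pluripotent cells, fell by 2.97 on the log2 scale in ΔPG het, 2.54 in ΔPG hom, 3.05 in ΔG het and 2.75 in ΔG hom. Gdf11 rose by 1.56, 2.11, 2.50 and 2.05 in the same order, and Bmp5 by 2.21, 1.58, 1.41 and 0.85. Bmp2 rose in each genotype, by 0.98 in ΔG hom and 1.39 in ΔPG hom, where Bmp4 fell.

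Of the 7 receptors 4 rose in ΔPG het and 5 in each other genotype, and none of the 7 was called lower in any of the 4. Bmpr2, the type II BMP receptor, rose by 1.54, 1.68, 1.38 and 1.29, and the type I receptor Bmpr1a by 1.39, 0.94, 1.18 and 0.99. All 4 signal-transducing Smads rose in both ΔPG genotypes, 3 in ΔG het and 2 in ΔG hom. Smad5 rose by 1.14, 0.73, 1.06 and 0.96, and Smad4, the common partner, by 0.84, 0.62, 0.73 and 0.68.

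Of the secreted antagonists 4 or 5 rose in each genotype (of 11 varying in ΔPG and 12 in ΔG). Nog, which sequesters BMP4, rose by 1.18, 1.17, 0.82 and 0.71. Fst, which binds activins, fell by 1.14 in ΔPG hom, 0.85 in ΔG het and 0.91 in ΔG hom, and was at 0.04 ± 0.10 in ΔPG het. The difference between the Fst responses of the ΔPG genotypes was -1.18 ± 0.17 (adjusted p = 0.000115) and remained -1.06 with the GC trend removed. Of the 5 other intracellular inhibitors, Ski and Skil rose in each genotype, Ski by 1.14, 1.56, 1.68 and 2.04, and Tob1 fell in 3 genotypes, by 0.59 in ΔPG het, 0.83 in ΔG het and 0.54 in ΔG hom.

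Of 9 transcription factors known as BMP targets, 6 rose in each ΔPG genotype, 7 in ΔG het and 8 in ΔG hom, and none fell. Hand1 rose by 1.70, 1.36, 0.81 and 1.63. Msx1 rose by 2.52, 3.03, 2.95 and 3.13 and Gata3 by 2.54, 2.72, 2.43 and 2.67. Of the 3 E proteins that Id proteins bind, Tcf12 rose in each genotype (1.54, 1.25, 1.11 and 1.17), Tcf4 was not called in any, and Tcf3 rose in ΔPG hom (0.50), ΔG het (0.72) and ΔG hom (0.93). Tcf3 was at -0.05 ± 0.032 in ΔPG het, and its genotype difference in ΔPG ES, -0.59 ± 0.035 (adjusted p = 1.15e-05), was -0.12 with the GC trend removed.

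**Figure D4:**
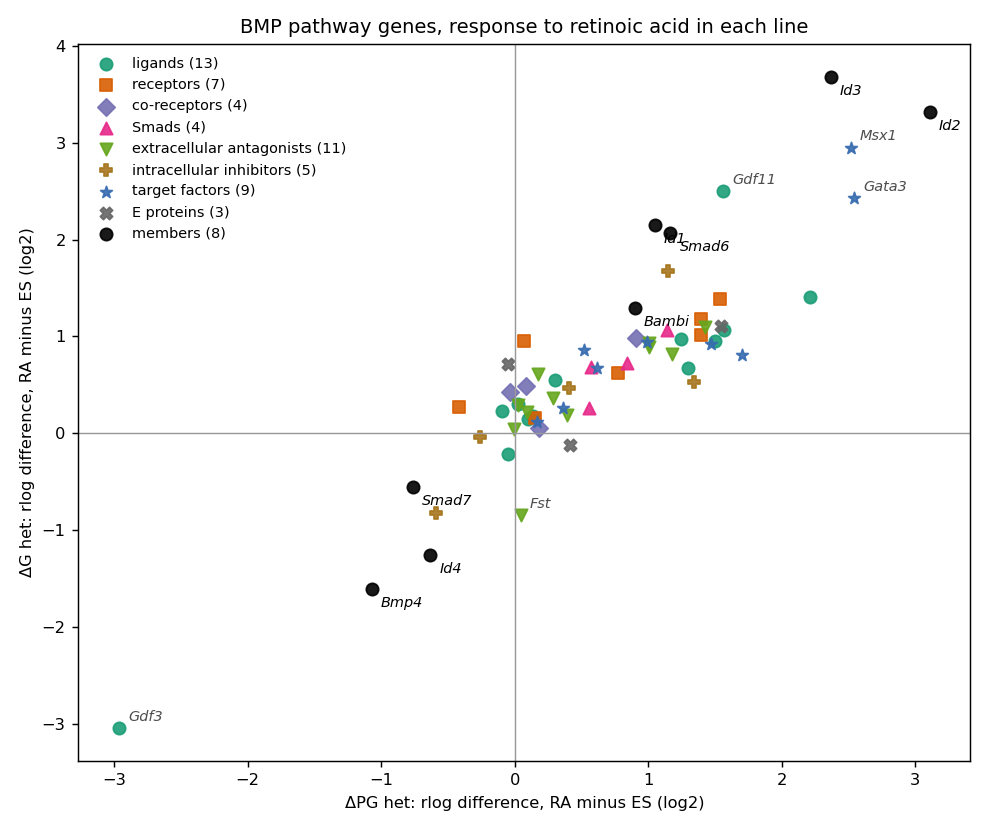
Difference in rlog value, RA minus ES (log2), of the 8 members (black) and of BMP pathway genes by role (colours and symbols), in ΔPG het (x axis) and ΔG het (y axis), which share no samples. Numbers in the legend are genes varying in both tables. Members and pathway genes lie mostly in the upper right, with Bmp4, Id4, Smad7, Gdf3 and Tob1 (-0.59 and -0.83) called lower in both, in the lower left, and Fst near 0 in ΔPG het and at -0.85 in ΔG het.

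Between genotypes, in ΔPG ES, 3 of 56 pathway genes were higher and 4 lower, beside 13.2% of all genes called. The 3 higher were Skil (0.57), Acvr2a (0.55) and Bmpr1a (0.51) and the 4 lower Eng (-0.80), Acvr2b (-0.66), Tcf3 (-0.59) and Smurf1 (-0.54). With the GC trend removed none of these 7 was called. Of the 35 whose mean rlog reached 3, 2 other genes were then called higher, Bmp8b (0.51) and Dand5 (0.55), beside 7.27% of 11904 genes called. In the comparison of RA responses between the ΔPG genotypes, 7 rose more in hom, among them Acvr2b (1.01), Eng (0.82), Chrd (0.56) and Tcf3 (0.55), and 5 rose less or fell more, among them Fst, Bmper (-0.65), Bmp5 (-0.63) and Skil (-0.60), 12 of 56 beside 13.9% of all genes. With the GC trend removed, Acvr2b (0.52), Fst and Dand5 (-0.97) were called, 1 of 35 higher and 2 lower, beside 9.43% of 11904 genes called. In ΔPG RA, Msx1 was higher in hom (0.53) and Fst and Bmper lower (-0.90 and -0.61), 3 of 56 beside 0.846% of all genes. In ΔG ES, Skil was lower (-0.53 ± 0.042, adjusted p = 0.00110), 1 of 57 beside 0.984% of all genes. In ΔG RA, Gata2 and Hand1 were higher (0.85 and 0.81) and Bmp5 lower (-0.57), 3 of 57 beside 2.14%. In the comparison of RA responses between the ΔG genotypes, Hand1 (0.82), Gata2 (0.66) and Skil (0.63) rose more in hom, 3 of 57 beside 2.38% of all genes.

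The genes with the most similar pattern were found by the root mean square difference of values centred on each table, over 24 samples and 11766 genes whose mean rlog was 3 or more in both tables. Nearest to Id1 were Tspan9 (0.118), Cgn (0.137) and Mapkapk2 (0.139), where the median gene was at 0.960. Nearest to Id3 were Npr1 (0.161), Mdk (0.173) and Myh10 (0.177), and nearest to Bmp4 were Rest (0.115), Rtel1 (0.120) and Slc25a13 (0.133). Among the members, Id1 and Smad6 were nearest to each other at 0.246, Bmp4 and Id4 were 0.313 apart and Id2 and Id3 0.334 apart, while Id2 and Bmp4, which moved in opposite directions, were farthest apart at 2.30.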

How the data were processed

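RNA-seq libraries (stranded total RNA, ribosomal RNA removed) of 24 samples were used. Per the labels and methods, the authors aligned reads to mm9 with TopHat2 2.1.0, removed duplicates with Picard, used HTSeq 0.6.0 for strand-aware counts on GENCODE models, and transformed the counts with DESeq2 1.14.1. The deposited values are rlog values (log2), in 1 table of 12 samples per line. Whether the transformation used the groups is not given in the sources used here. The depth per sample is unknown and limits the precision of low genes.

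Of 33924 genes per table, 21979 (ΔPG) and 22048 (ΔG) varied and were tested. R 4.3.3 with limma 3.58.1 (eBayes with a variance trend, two-sided) was run on the 6 samples compared, or on 12 for the difference of RA responses, with Benjamini-Hochberg adjustment over all varying genes. Calls needed an adjusted p under 0.1 and an absolute difference over 0.5. For the GC correction, a lowess curve (span 0.3) against exonic GC content was subtracted per sample, using the genes whose mean rlog reached 3. Other alternatives were a 12-sample fit, a filter on low genes, median scaling, quantile normalization, no variance trend, other limits, a replicate block and leaving out each sample. The fit was tested on simulated data. Python 3.11.15, numpy 2.4.6, pandas 2.3.3 and matplotlib 3.10.9 made the summaries.

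The members, lists and alternatives were chosen with earlier results of these data known. All members were named, together with up to 4 pathway genes with the largest rise and 4 with the largest fall per comparison among called genes whose samples did not overlap, 5430416N02Rik and Trp53 as checks, and the 3 nearest patterns of Id1, Id3 and Bmp4. Bmp2, Bmpr1a, Smad4, Smad5, Nog, Tcf12 and Tcf4 in the RA comparisons, Bmp5, Bmpr2, Gdf11, Hand1, Ski, Skil, Fst, Tob1 and Tcf3 in those the rule did not cover, Thy1 among the markers, Bmp8b and Dand5 with the GC trend removed, and the distances between members were named after their values were seen. Sox1 and Tfap2c had no row, Sostdc1 was 0 in all ΔPG samples and Mesp1 in all ΔG samples. 4C-seq, RIP-seq and Capture-C data were not analysed here.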

Additional observations from a re-analysis of the deposited data

Results flagged for a closer look

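The RA response differed between the ΔPG genotypes for Id1 (hom minus het, 0.50) and Smad6 (0.73), and between the ΔG genotypes for Id3 (-0.53), each by limma on the difference itself. For Id1 and Smad6 it was not called once the GC trend was removed.

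In ES, 3 genes had hom samples all on one side of the het samples in ΔPG and all on the other side in ΔG. Hom and het were separated, to either side, in 39.6% of all genes in ΔPG ES and in 17.8% in ΔG ES. The share of all genes separated to opposite sides in ΔPG and ΔG was not computed. Whether this count is more than that of other genes therefore cannot be told. Id2 was at 0.25 in ΔPG and -0.65 in ΔG, Smad6 at -0.59 and 0.47, and Smad7 at -0.50 and 0.13. By limma Id2 was called only in ΔG, and Smad6 and Smad7 only in ΔPG. The difference between the lines was not tested, because the tables were normalized separately. With the GC trend removed the ΔPG value of Id2 was -0.15, on the same side as in ΔG. The ΔPG values of Smad6 and Smad7 were then -0.12 ± 0.13 and -0.13 ± 0.047.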

How the results depend on the processing

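The directions of all 8 members in the 4 RA comparisons held under every alternative run, and 503 of 512 alternative values kept their side of the limits, the others being those of Id4 in ΔPG het and of Smad7 in ΔPG hom and both ΔG genotypes. The count of members called moved elsewhere. In ΔPG ES (3 called by limma) it was 1 with quantile normalization, 1 with adjusted p under 0.05 and fold over 1.5, and 0 with the GC trend removed, also in the fit with both the replicate block and GC (5 members with unadjusted p under 0.05), where Bmp4 (0.16), Id3 (0.072) and Id2 (-0.15) turned sign. For the ΔPG difference of responses (2 called) it was 1 with median scaling, quantile normalization or fold over 1.5, 4 without a size limit and 0 with GC removed (2 with unadjusted p under 0.05), where Id3 turned to -0.080. In ΔG ES (1) it was 0 with quantile normalization, in ΔG RA (0) 3 without a size limit, and for the ΔG difference of responses (1) 2 with GC removed or without a size limit and 0 at fold over 1.5 (3 with unadjusted p under 0.05). Leaving out 1 library gave 7 to 8 (ΔPG het RA), 7 (ΔPG hom RA), 2 to 3 (ΔPG ES), 0 (ΔPG RA), 1 to 2 (ΔPG responses), 8 (ΔG het RA), 7 to 8 (ΔG hom RA), 0 to 1 (ΔG ES), 0 (ΔG RA) and 0 to 2 (ΔG responses).

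Deviations of same-numbered samples correlated at -0.026 to 0.085, with 0.085, 0.010 and 0.049 between hom and het in ΔPG ES. Whether same-numbered samples shared a batch cannot be told from these values. With the replicate block the count of members in ΔG ES was 0 (Id2, adjusted p = 0.170, 3 with unadjusted p under 0.05), and with the block and GC removed it was 0 in ΔPG ES, 0 for the ΔPG responses and 2 for the ΔG responses. The block changed no other count of members.

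Genes called in all went from 2893 to 866 (ΔPG ES) and from 3056 to 1122 (ΔPG responses) with GC removed, where 11904 genes were tested, from 186 to 112 (ΔPG RA) and 217 to 44 (ΔG ES) with the block, and from 217 to 117, 471 to 275 and 524 to 268 (ΔG ES, RA and responses) at fold over 1.5. On the same 11904 genes with the GC trend kept, 2784 (ΔPG ES) and 2976 (ΔPG responses) were called. Without a size limit they were 12607, 11424, 7926, 1006 and 6387 in ΔPG and 12012, 11772, 1152, 2433 and 1164 in ΔG, beside 6947, 6116, 2893, 186 and 3056 and 6499, 6434, 217, 471 and 524. The causes of the changes under quantile normalization and the block were not tested.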
